A study of Mus musculus with 44 samples.

Results

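The acute response of the mouse spleen to 2-butoxyethanol (2BE) was read from 8 of the 44 arrays of the series: 4 spleens of B6C3F1 mice given 2BE and 4 of B6C3F1 mice given vehicle, all labelled 4 h. The 8 arrays were taken by their titles, and every gene the array measured was described. B6C3F1 is a hybrid laboratory strain. The study also measured liver and bone marrow and a 7 d time point, of which the 10 spleen arrays at 7 d (5 in each group) and the 7 liver arrays at 4 h (4 with 2BE, 3 with vehicle) are used here for comparison. The treatment field of the labels calls the vehicle arrays "control" and the 2BE arrays "reduced oxygen". No dose, route, age or sex stands in the labels, nor whether an array is 1 mouse, so the p-values measure the spread between these arrays only. All animals of both groups were killed under ketamine and acepromazine anaesthesia, and part of a cross-section of each spleen was taken, with whatever fat or vessels came with it. RNA was labelled and hybridised to Affymetrix arrays, and levels below are RMA intensities (an arbitrary brightness unit on a linear scale), listed in the order of replicates 1 to 4.

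2BE is a glycol ether solvent. Alcohol and aldehyde dehydrogenases oxidise it to butoxyacetic acid, which makes rodent red cells swell and burst, and the spleen is the organ that filters damaged red cells from blood. In tissues under acute stress a first wave of transcription runs through factors that are already present in the cell: NF-kB switches on chemokines, cytokines and its own inhibitors, heat shock factor switches on protein-folding chaperones, the glucocorticoid receptor switches on metallothioneins and growth brakes, and growth factor signalling switches on the AP-1 and EGR factors together with phosphatases that end the signal.

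The 8 arrays carried the marks of spleen. Mean log2 levels were 10.3 to 11.3 for 13 B cell markers and 10.3 to 10.5 for 18 macrophage markers of red pulp and marginal zone, against 5.93 to 6.02 for 10 markers of the neighbouring pancreas and a median of 6.48 over all probe sets. Array medians ran from 87.0 to 89.2. A pair of arrays stood apart. Vehicle replicate 3 had the highest level of granulocyte progenitor markers (12.4 on the log2 scale, against 7.73 to 9.89 in the other vehicle arrays), with more neutrophil and erythroid signal and less B cell signal. 2BE replicate 3 had the highest level of adipocyte markers (8.43, against 6.15 to 6.65 in the other 2BE arrays). After a list's count of rises and falls, brackets give the same counts without this pair, and in a fit of the 8 arrays alone, where they differ.

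At 4 h the response was mainly one of induction, and its top was made of chemokines, heat shock proteins and early response genes. Of 18193 genes, 938 changed at an adjusted p under 0.05 (5.16%; limma with Benjamini-Hochberg adjustment over all genes), 602 upwards (3.31%) and 336 downwards (1.85%). Of 137 genes that changed at least 2-fold, 129 rose (0.709% of genes) and 8 fell (0.0440%), and 31 rose at least 4-fold. The largest rises were those of Cxcl2, Hspa1a, Hspa1b, Ccn1, Cxcl1, Il6, Ccl2, Errfi1, Adamts1 and Fos. The largest fall that met the rule for naming was that of Ncr1, a receptor of natural killer (NK) cells. All 4 2BE arrays lay above all 4 vehicle arrays for 869 genes (4.78%) and below them for 1265 (6.95%). The median log2 change over all genes was -0.032, and list medians below are read beside it. Without the pair of arrays that stood apart, 707 genes were called (485 up, 222 down), of which 617 were among the 938. Fitted on the 8 arrays alone, 508 were called (347 up, 161 down), and after a further quantile normalization 1167 (613 up, 554 down). Each array was also left out in turn, and where that ended a call the array is given by its replicate number (vehicle array 1 to 4, 2BE array 1 to 4).

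**Figure D1:**
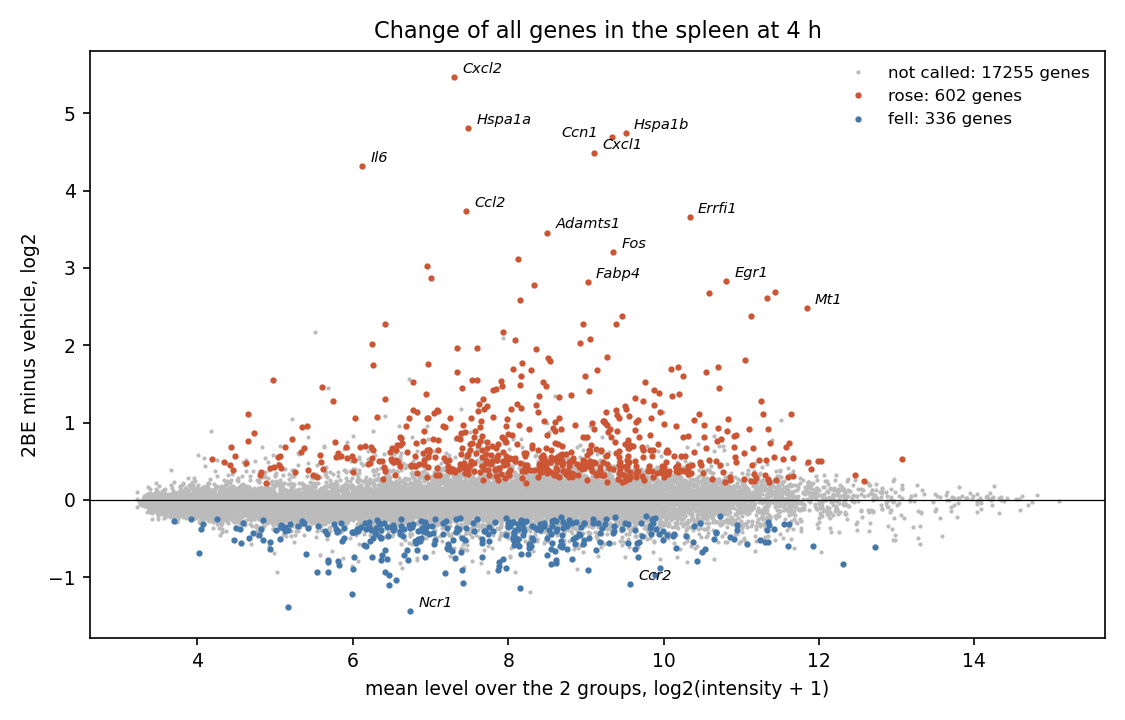
Change of every gene in the spleen at 4 h: the x axis is the mean level over the vehicle and 2BE groups on the log2(intensity + 1) scale, the y axis the log2 difference of 2BE minus vehicle, and each point is 1 of 18193 genes. The 602 genes that rose reach a log2 difference of 5.46 (Cxcl2), while the 336 that fell stay within a narrow band below 0, with Ncr1 at -1.44.

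Inflammatory chemokines, the secreted proteins that call neutrophils and monocytes out of blood, held the largest single rise of the response. Of 17 measured, 8 rose and 0 fell (7 and 1 without the pair, 5 and 0 on the 8 arrays alone), with a list median of 0.46. Cxcl2, a neutrophil attractant, stood at 22.2, 24.5, 20.6 and 24.3 in the vehicle arrays and at 1998, 1154, 835 and 633 in the 2BE arrays. It was below the lower quartile of all probe sets (27.6) in every vehicle spleen and far above the array's median in every 2BE spleen, a 44.1-fold rise (log2 difference 5.46 ± 0.21 SE, adjusted p = 1.57e-11). Cxcl1, its close relative, had 113, 144, 96.9 and 113 with vehicle and 5208, 2647, 2205 and 1502 with 2BE, 22.3-fold more (adjusted p = 5.03e-10). Replicate 1 was the highest 2BE array for both, and 2 other Cxcl1 probe sets gave log2 differences of 1.33 and 7.01. Ccl2, which attracts monocytes through the receptor Ccr2, went from 49.8, 41.4, 64.8 and 37.4 to 1533, 438, 635 and 396, 13.3-fold. For Cxcl5 the vehicle arrays read 52.0, 29.9, 113 and 26.1 and the 2BE arrays 1053, 179, 476 and 159.7, 7.32-fold (adjusted p = 0.000667). Ccl3 rose 3.34-fold, with 2BE arrays at 322, 132, 94.1 and 94.0. Smaller rises were those of Ccl4 (1.85-fold), Ccl12 (1.73-fold) and Ccl7 (1.37-fold), and the call of Ccl4 was lost without vehicle array 2 (adjusted p then 0.0584). The interferon-driven chemokines Cxcl9 and Cxcl10 and the T cell attractant Ccl5 did not pass the test (log2 differences of -0.60, 0.55 and -0.77). Among 14 lymphoid and other chemokines 0 rose and 1 fell (0 and 0 on the 8 arrays alone), with 0 higher and 1 lower at an unadjusted p under 0.05 by limma. Xcl1, made by NK and T cells, fell 1.41-fold, a call lost without vehicle array 2, or 2BE array 2, 3 or 4 (adjusted p then 0.0627 to 0.0657). NK cell markers were lower too, with a mean log2 level of 7.54 to 7.95 over 14 markers in the vehicle arrays and 7.20 to 7.41 in the 2BE arrays. In bulk tissue, fewer cells of a type and less RNA per cell cannot be told apart.

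**Figure D2:**
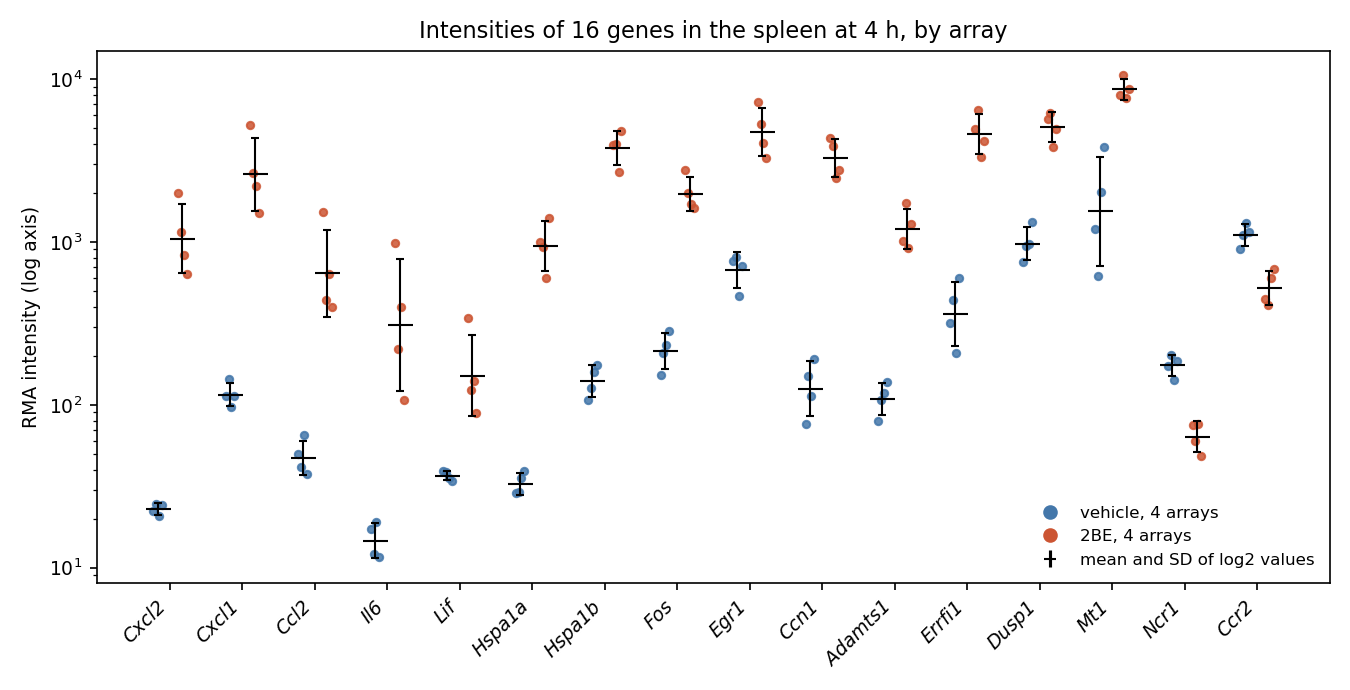
RMA intensity on a log axis of 16 genes in each of the 8 spleen arrays at 4 h: blue points are the 4 vehicle arrays, red points the 4 2BE arrays, and the bar with whiskers is the mean and SD of the log2 values. For the 14 genes that rose, from Cxcl2 to Mt1, every 2BE array lies above every vehicle array, and for Ncr1 and Ccr2 every 2BE array lies below.

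The promoters of the leading chemokines and of Il6 are shown because they carry the NF-kB site for which these genes are textbook targets, and all of these genes rose. The lines below give the 150 bases before the RefSeq gene start, 5′ to 3′ on the gene's strand (build GRCm38.p6), for Cxcl2 (chr5:90903749-90903898, plus strand), Cxcl1 (chr5:90891095-90891244, plus strand) and Il6 (chr5:30012964-30013113, plus strand), with matches to the NF-kB consensus in capitals.
Cxcl2: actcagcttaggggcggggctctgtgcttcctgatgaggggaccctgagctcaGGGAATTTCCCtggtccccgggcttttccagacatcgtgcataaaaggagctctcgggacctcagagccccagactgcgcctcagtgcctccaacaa
Cxcl1: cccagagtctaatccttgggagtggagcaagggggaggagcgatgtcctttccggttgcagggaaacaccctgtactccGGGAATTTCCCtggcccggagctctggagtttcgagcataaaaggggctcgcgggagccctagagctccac
Il6: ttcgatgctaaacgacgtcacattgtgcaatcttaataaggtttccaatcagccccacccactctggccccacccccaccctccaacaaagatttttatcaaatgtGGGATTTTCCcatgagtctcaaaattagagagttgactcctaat
The search covered both strands of the 250 bases before each start, and overlapping matches in Cxcl1 and Cxcl2 run together as 1 block. Such a match stood in 7.25% of all 32851 promoter windows and, counted by gene, in 10.1% of the 14452 tested genes that had a window. Among the 89 genes that rose at least 2-fold and had a window it stood in 22 (24.7%), and among the 259 that fell and had a window in 25 (9.65%). Of the 10 inflammatory chemokines with a window 5 held a match, 2 of the 4 that rose and 3 of the 6 others. Of the 23 NF-kB regulators with a window 12 did, 3 of the 4 that rose and 9 of the 19 others. These counts describe letters in a window and not binding.

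Cytokines were induced selectively: 5 of 24 rose and 2 fell (5 and 1 without the pair, 4 and 2 on the 8 arrays alone), and the list median was -0.023. Il6, which drives fever and the hepatic acute phase, lay at 17.2, 12.1, 18.9 and 11.5 with vehicle, below the lower quartile of the array, and at 982, 219, 396 and 108 with 2BE. The 2BE arrays spanned a wide range, yet the lowest stood far above the highest vehicle array (log2 difference 4.31 ± 0.40 SE, 19.9-fold, adjusted p = 8.46e-07). Lif, of the same cytokine family, rose 4.04-fold, from 39.0, 38.8, 35.3 and 34.0 to 339, 124, 139 and 89.2, although its other probe set gave a log2 difference of 0.03. Il1a, an alarm cytokine of the interleukin-1 family, rose 2.10-fold, Csf3, the growth factor of neutrophils, 2.08-fold, and Il10, an inhibitory cytokine, 1.61-fold. Il1b and Tnf, the classical companions of Il6, were not called. Il1b had 601, 856, 573 and 1259.5 with vehicle and 3395, 949, 971 and 696 with 2BE, so a single 2BE array was high and the groups overlapped (adjusted p = 0.353). Tnf differed by -0.092 ± 0.12 SE (adjusted p = 0.74). The cytokines that fell were Il15, which sustains NK cells (123, 110.4, 111 and 123 with vehicle, 60.6, 66.6, 54.7 and 62.2 with 2BE, 1.90-fold lower, adjusted p = 0.000109), and Ifng (1.43-fold lower). NK cells are a known source of Ifng, and the part of the lower NK marker level was not tested.

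Of 25 cytokine and growth factor receptors 1 rose and 2 fell (2 and 1 on the 8 arrays alone). Tnfrsf12a, the receptor of TWEAK, was the member that rose (2.80-fold, vehicle 131, 171, 178 and 203, 2BE 465, 581, 418 and 449). Ccr2, the receptor of Ccl2 on monocytes, fell 2.12-fold, from 901, 1111, 1307 and 1147 to 445, 411, 597 and 679.5, with no overlap (other probe sets gave -1.49, -1.07 and -0.44). Il13ra1 fell 1.41-fold and lost its call without vehicle array 3 or 4, or 2BE array 1, 2, 3 or 4 (adjusted p then 0.0546 to 0.115). Its other probe sets gave -0.13, -0.40, -0.43 and -0.34, none of them called. In the toll-like receptor pathway 1 of 17 members rose: Cd14, the co-receptor for bacterial lipopolysaccharide, was 2.44-fold higher (364, 432, 727 and 778 against 1298, 1259, 1284 and 1504), while Tlr2, Tlr4 and Myd88 had log2 differences of -0.017, -0.026 and -0.23 and were not called. The mean log2 level of 10 monocyte markers was 9.98 to 10.6 with vehicle and 9.76 to 10.1 with 2BE, and its part in these changes was not tested.

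NF-kB feedback genes were induced in part, 5 of 25 members up and 0 down (4 and 0 without the pair, 3 and 1 on the 8 arrays alone), with a list median of 0.11. Tnfaip3, the ubiquitin-editing enzyme A20 that shuts the pathway off, went from 583, 719, 423 and 608 to 2077, 1765, 1242 and 1229 (2.68-fold, adjusted p = 3.82e-05). Nfkbiz, a nuclear cofactor needed for Il6 transcription, rose 2.09-fold, with vehicle at 596, 753, 509 and 687 and 2BE at 2051, 1355, 1119 and 971, while other probe sets gave 0.26 and 0.93. Nfkbia, the inhibitor that holds NF-kB in the cytoplasm, was already among the bright genes and rose 1.45-fold (7107, 8669.5, 5405 and 7963 against 12085, 11076, 9745 and 8936), a call lost without vehicle array 1 or 3, or 2BE array 1, 2 or 3 (adjusted p then 0.0657 to 0.127). Sele, an endothelial adhesion molecule, rose 1.44-fold below the lower quartile of the array (13.3, 14.0, 14.2 and 15.2 against 25.3, 19.6, 21.8 and 17.2; adjusted p 0.0528 without the pair), and Sod2, mitochondrial superoxide dismutase, 1.35-fold. The subunits Rel, Rela, Relb and Nfkb2 lay between -0.045 and 0.27 and were not called. The interferon response list had 0 of 21 members called by limma and a median of -0.19 (0 and 1 on the 8 arrays alone), with 0 higher and 5 lower at an unadjusted p under 0.05. Of the 14 IRF and STAT factors 0 were called (median -0.13; 1 higher and 2 lower at an unadjusted p under 0.05), and of the 18 acute phase proteins 0 (1 and 0 on the 8 arrays alone), with 2 higher and 0 lower at an unadjusted p under 0.05. Socs3, the inhibitor of IL-6 receptor signalling, had 449, 599.9, 579 and 1422 with vehicle and 2274, 1316, 1752 and 978 with 2BE (log2 difference 1.13 ± 0.38 SE, adjusted p = 0.0999). It was not called, except without vehicle array 4 (adjusted p then 0.0219), the vehicle array with the highest level.

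Heat shock proteins rose through a few members, led by the inducible Hsp70 genes. Of 27 chaperones and cofactors 7 rose and 1 fell (6 and 0 without the pair, 4 and 0 on the 8 arrays alone), with a list median of 0.22. Hspa1a had 28.6, 29.0, 35.3 and 39.3 in vehicle spleens and 1007, 937, 599.6 and 1407 in 2BE spleens, 28.0-fold more (log2 difference 4.81 ± 0.21 SE, adjusted p = 4.26e-11). Hspa1b went from 108, 128, 159.5 and 176 to 3942, 4005, 2699 and 4775, 26.8-fold (adjusted p = 8.66e-08), and its 2 other probe sets gave log2 differences of 4.75 and 5.02. The coding sequences of these neighbouring genes are nearly identical, so a probe of either may also read the other. Hspb1, the small heat shock protein Hsp27, rose 2.59-fold with overlapping groups (369.6, 686, 662 and 1684 against 1207, 2625, 1959 and 2060.2), and lost its call without vehicle array 1, or 2BE array 2 (adjusted p then 0.0527 to 0.053). Dnajb4, an Hsp40 cochaperone, rose 1.95-fold and Bag3, which links Hsp70 to autophagy, 1.40-fold, both without overlap (for Dnajb4 other probe sets gave -0.019 and 0.62). Hsph1 and Hspe1 rose 1.47-fold and 1.23-fold, and the call of Hsph1 was lost without vehicle array 1, 2 or 4, or 2BE array 1, 3 or 4 (adjusted p then 0.0726 to 0.161). Hsf2, a heat shock factor, fell 1.27-fold. The constitutive Hspa8, the Hsp90 gene Hsp90aa1 and the mitochondrial Hspd1 were not called (log2 differences of 0.20, 0.27 and 0.20). Of 23 members of the unfolded protein and integrated stress responses 0 were called by limma (1 higher and 4 lower at an unadjusted p under 0.05), with Hspa5 at -0.02, Ddit3 at -0.18 and Atf4 at -0.05.

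Promoters of Hspa1b (chr17:34959239-34959388, minus strand) and Hspb1 (chr5:135887769-135887918, plus strand) are shown over the 150 bases before the start, with each pair of facing or back-to-back heat shock units (TTCNNGAA or GAANNTTC) in capitals, because heat shock factor binds such units.
Hspa1b: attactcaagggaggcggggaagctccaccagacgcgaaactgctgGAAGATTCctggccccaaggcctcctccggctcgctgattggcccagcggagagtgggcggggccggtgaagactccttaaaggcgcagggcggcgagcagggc
Hspb1: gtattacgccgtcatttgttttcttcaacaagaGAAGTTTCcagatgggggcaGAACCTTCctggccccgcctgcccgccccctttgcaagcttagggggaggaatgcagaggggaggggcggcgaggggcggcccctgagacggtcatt
The Hspa1a stretch (chr17:34972157-34972306, minus strand) equals that of Hspa1b at 149 of 150 positions, and holds its pair at the same place, 104 bases before the start. A pair stood in 12.8% of all promoter windows of 250 bases, and by gene in 1883 of 14452 tested genes with a window. Among genes with a window it stood in 16 of the 89 that rose at least 2-fold (18%) and in 67 of the 444 that rose at all (15.1%). It stood in 35 of the 259 that fell (13.5%), beside 13% of tested genes. In the chaperone list it stood in 11 of 24 members with a window, and in 6 of the 7 that rose. These 6 include both Hspa1a and Hspa1b, whose stretches are nearly the same.

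Glucocorticoid-inducible genes had the highest median of the 34 lists, 1.44, with 11 of 16 members up and 0 down (8 and 0 without the pair, 9 and 0 on the 8 arrays alone). Members of all 34 lists were chosen with earlier results of these data known, so ranks among lists are a description. The largest rise in this list was that of Errfi1, given below with the growth factor feedback genes. The metallothioneins Mt1 and Mt2, small zinc-binding proteins, rose 5.60-fold and 6.44-fold. Mt1 stood at 1204, 620.1, 2018 and 3810.4 with vehicle and 7948, 10628, 7663 and 8731 with 2BE. Vehicle spleens spanned the wider range, replicate 4 being the highest, yet all lay below every 2BE array. Cdkn1a, the cell cycle inhibitor p21, rose 3.49-fold (192, 186, 223 and 196 against 585, 887, 619 and 729.6, adjusted p = 1.26e-08). Per1, a clock gene with a glucocorticoid-responsive promoter, rose 2.87-fold, Sgk1, a kinase, 2.55-fold, Cebpd 3.04-fold and Ddit4, an inhibitor of mTORC1, 3.28-fold, a call lost without the pair (adjusted p 0.0521). For Cebpd another probe set gave 0.37, and for Mt1 another probe set gave 1.49. Fkbp5, the receptor's co-chaperone, rose 2.05-fold at an adjusted p of 0.0482. Tsc22d3, also called GILZ, had 1769.9, 2128, 1479 and 3094 with vehicle and 3422, 5598, 3706 and 4213 with 2BE: the groups did not overlap, but the test was missed (adjusted p = 0.0592), and was passed without vehicle array 4 (adjusted p then 0.0294). Zbtb16, Pdk4 and Klf9 were not called (log2 differences of 1.35, 0.87 and 0.64). The receptor gene Nr3c1 itself was at -0.069.

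In the list of p53 targets and growth arrest genes 6 of 22 rose and 0 fell (4 and 0 without the pair, 4 and 0 on the 8 arrays alone), and the median was 0.082. The polo-like kinases that respond to stress led it: Plk3 had 133, 131, 133 and 131 with vehicle and 633, 653, 501 and 465 with 2BE (4.20-fold, adjusted p = 1.21e-10), and Plk2 rose 3.87-fold, although its other probe set gave -0.34. Gadd45g rose 1.49-fold. Pmaip1 and Sesn1 rose 1.77-fold and 1.61-fold, the first call being lost without vehicle array 3, or 2BE array 1 or 2 (adjusted p then 0.0604 to 0.0837) and the other without 2BE array 2 (adjusted p then 0.0504). Cdkn1a, given above with the glucocorticoid genes and also a p53 target, was the other member that rose. Mdm2, Ccng1 and Phlda3, p53 targets too, lay at 0.023, -0.066 and -0.003 and were not called. Of 20 apoptosis regulators 2 rose and 0 fell (1 and 0 without the pair, 1 and 0 on the 8 arrays alone): the BH3-only genes Bcl2l11 (1.96-fold, adjusted p = 4.38e-05; other probe sets gave 0.28, 0.51, 0.60 and 0.92) and Pmaip1 again. Of the 25 cell cycle genes 0 were called by limma (median 0.16; 0 higher and 0 lower at an unadjusted p under 0.05).

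Antioxidant genes under the factor Nrf2 rose at a handful of loci: 5 of 21 up and 1 down (7 and 1 without the pair, 5 and 0 on the 8 arrays alone), median 0.18. Srxn1, sulfiredoxin, had 146, 110.5, 226 and 159 with vehicle and 693, 582, 428 and 464 with 2BE (3.41-fold, adjusted p = 1.08e-06), while other probe sets gave -0.10, 0.86 and 1.35. Txnrd1, thioredoxin reductase, rose 2.15-fold without overlap (910.1, 881, 1064 and 969 against 2524, 2248, 1719 and 1819; other probe sets gave 0.46 and 0.65). Osgin1 rose 2.37-fold, Slc7a11, the cystine importer, 2.09-fold (another probe set gave 0.24), and Gclc, the catalytic subunit of glutathione synthesis, 1.90-fold. Nqo1 and Gclm were not called (0.44 and 0.18). Hmox1, which degrades heme, had 437, 2286, 905 and 2296 with vehicle and 2301, 3119, 1491 and 1938 with 2BE, so the groups overlapped, and it was not called (log2 difference 0.83 ± 0.38 SE, adjusted p = 0.252). Cbr3 fell 1.33-fold, a call lost without vehicle array 4, or 2BE array 1 (adjusted p then 0.0507 to 0.0581). The count of rises in this list was 8 without vehicle array 3. Nfe2l2, which encodes Nrf2, rose 1.34-fold, and this call was lost without vehicle array 2, or 2BE array 1 (adjusted p then 0.0557 to 0.0591).

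Since the labels name reduced oxygen, hypoxia-inducible genes were listed too. Of 24 measured, 4 rose and 0 fell (1 and 0 without the pair, 3 and 0 on the 8 arrays alone), with a median of 0.10. Adm, adrenomedullin, a vasodilator peptide, rose 2.33-fold without overlap (149, 163, 97.6 and 151 against 279, 365, 316 and 331, adjusted p = 2.38e-06). Ddit4, counted above with the glucocorticoid genes, rose 3.28-fold. Pfkfb3 and P4ha2 rose 1.50-fold and 1.48-fold; the call of Pfkfb3 was lost without vehicle array 1, 2 or 3, or 2BE array 1, 2, 3 or 4 (adjusted p then 0.0651 to 0.115) and that of P4ha2 without vehicle array 1 or 3, or 2BE array 4 (adjusted p then 0.0501 to 0.0861). The other Pfkfb3 probe set gave a log2 difference of -0.056. The count of rises in this list fell to 2 without vehicle array 1 or 3, or 2BE array 4. Vegfa, Car9, Pgk1, Ldha and Egln3, among the most used readouts of hypoxia, had log2 differences of -0.36, -0.14, -0.14, 0.046 and 0.0028, and 0 of these 5 were called. Hif1a rose 1.42-fold, a call lost without 2BE array 2 (adjusted p then 0.0539).

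Sterol genes rose by small amounts: 8 of 17 up and 0 down (4 and 0 without the pair, 4 and 0 on the 8 arrays alone), median 0.28. Insig1, a sensor of the pathway, rose 1.72-fold (209.9, 222, 142 and 186 against 396, 319, 295 and 291, adjusted p = 0.000693) and Sqle, squalene epoxidase, 1.46-fold. Fdft1, Idi1, Hmgcs1, Dhcr7, Cyp51 and Pmvk rose between 1.28-fold and 1.51-fold. Of these, Fdft1, Hmgcs1 and Dhcr7 depended on single arrays: their calls were lost without vehicle array 2, or 2BE array 4 (adjusted p then 0.0504 to 0.0516), without vehicle array 3 or 4, or 2BE array 1 or 2 (adjusted p then 0.0539 to 0.0737) and without vehicle array 2 or 4, or 2BE array 3 or 4 (adjusted p then 0.0671 to 0.0932), in that order. The count was 5 without vehicle array 4, or 2BE array 4.

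Genes of the pericellular matrix, EGF-family ligands and proteases followed, with 15 of 22 up and 0 down (14 and 0 without the pair, 12 and 0 on the 8 arrays alone) and a median of 0.93. Ccn1 (Cyr61), a matricellular protein induced by growth factors and shear, had 76.6, 151, 113 and 189.8 with vehicle and 4379, 3889, 2457 and 2773 with 2BE, 26.0-fold more (log2 difference 4.70 ± 0.22 SE, adjusted p = 7.1e-11), and 3 other probe sets gave 3.73 to 4.97. Its relative Ccn2 (CTGF) rose 6.10-fold, from 852, 1127, 651 and 1858 to 6055, 8595, 4773 and 6495. The secreted metalloproteases Adamts1 (79.8, 107, 118 and 138 against 1014, 1735, 913 and 1289.6), Adamts4 and Adamts9 rose 11.0-fold, 4.85-fold and 2.93-fold (for Adamts9 other probe sets gave 1.07 and 3.24), and their inhibitors Timp3 and Timp1 3.15-fold and 2.07-fold. Among ligands of the EGF receptor, Ereg rose 2.93-fold and Hbegf 2.09-fold. Procr and F3, which steer coagulation in opposite directions as the protein C receptor and tissue factor, rose 1.90-fold and 1.46-fold, and Plat and Plaur, of plasminogen activation, 1.66-fold and 1.63-fold. Thbs1 and Thbd were not called (0.71 and 0.48); Thbd was called without vehicle array 4 (adjusted p then 0.0298).

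Of 13 vasoactive genes 4 rose and 0 fell (3 and 0 without the pair, 3 and 0 on the 8 arrays alone). Nos3, endothelial nitric oxide synthase, rose 2.47-fold (125, 99.9, 130.0 and 172 against 281, 395, 307 and 313, adjusted p = 2.17e-06), Edn1, the vasoconstrictor endothelin, 1.92-fold, and Ednrb, an endothelin receptor, 2.02-fold (other probe sets gave 0.32 and 0.38). Ptgs2, the inducible cyclooxygenase, was read by a dim probe set, with 16.7, 14.8, 16.4 and 16.3 and 48.0, 21.7, 26.0 and 17.6 (1.60-fold), whose call was lost without vehicle array 1, 2, 3 or 4, or 2BE array 3 (adjusted p then 0.0563 to 0.107) and with the larger offset of 16. Its other probe set gave a log2 difference of 3.84. Endothelial and stromal markers stood higher in the 2BE group as well. The mean log2 level of 17 endothelial markers was 7.96 to 8.35 with vehicle and 8.28 to 8.48 with 2BE, and that of 15 stromal and smooth muscle markers 8.47 to 9.01 and 8.85 to 9.27. Both ranges overlapped, and their part in these rises was not tested.

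**Figure D3:**
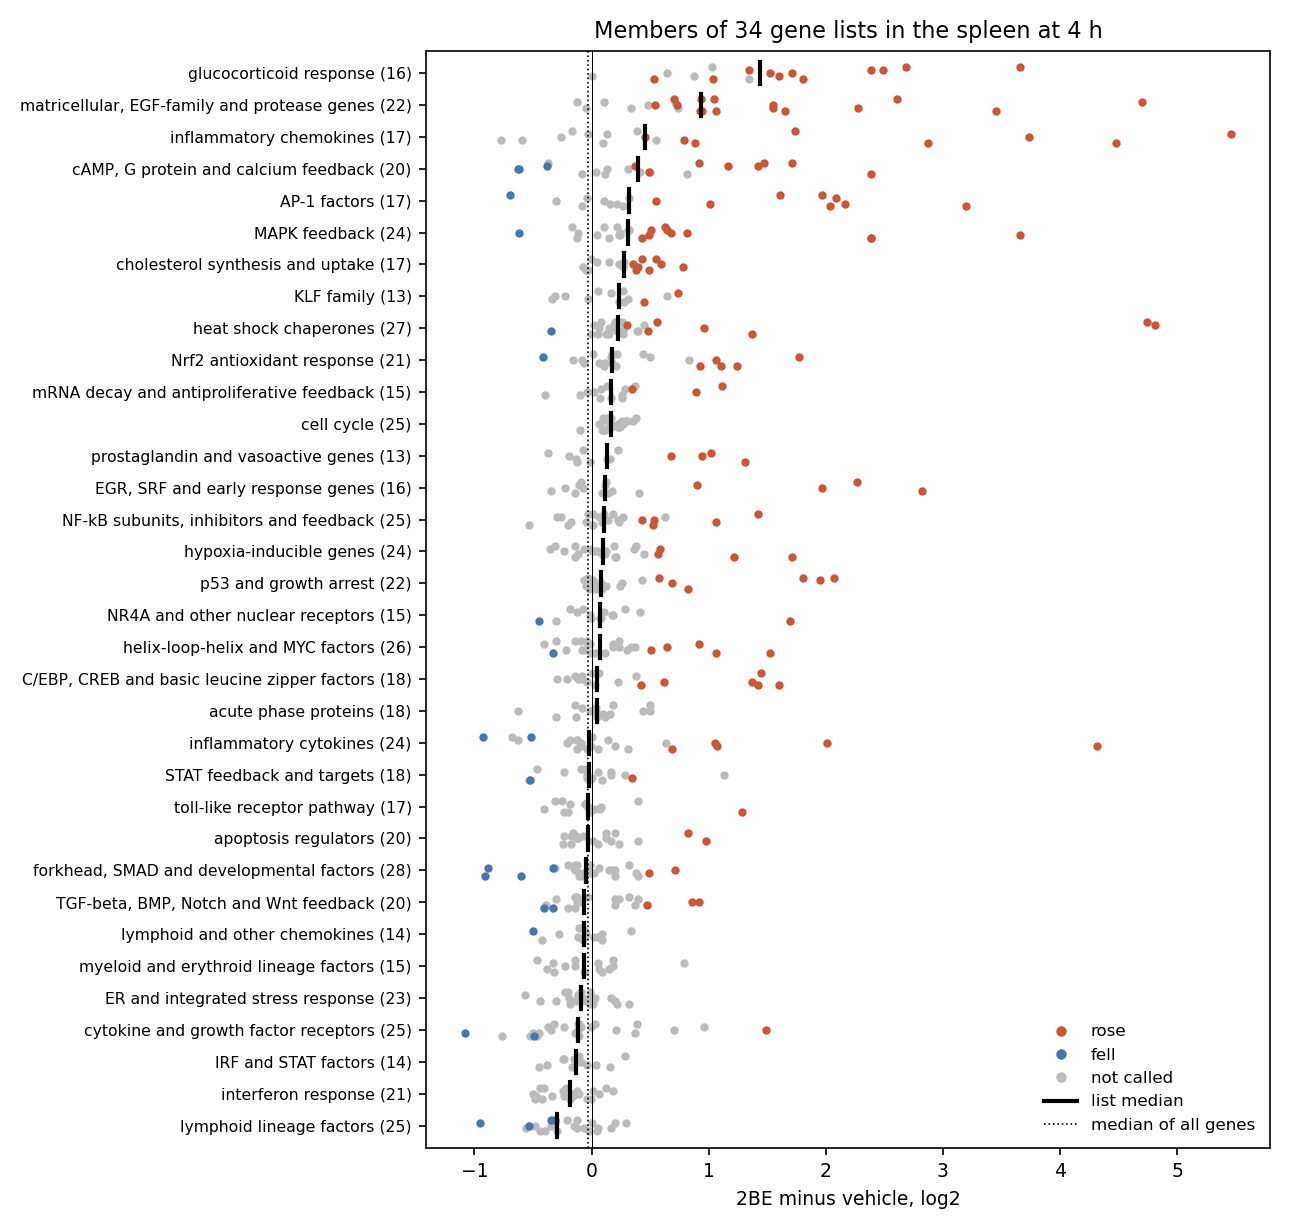
Log2 difference of 2BE minus vehicle for the measured members of 34 gene lists, 1 point a gene, with red for genes that rose, blue for genes that fell and grey for genes not called. The black bar is the list median, and lists are ordered by it, from -0.29 (lymphoid lineage factors) to 1.44 (glucocorticoid response), beside the median of all genes at -0.032 (dotted).

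Transcription factors of the immediate early class were prominent among the rises. Of 17 AP-1 factors 8 rose and 1 fell. Fos had 153, 207, 232 and 285 with vehicle and 2760.3, 1994, 1713 and 1614 with 2BE (9.19-fold, log2 difference 3.20 ± 0.21 SE, adjusted p = 8.57e-09). Jun, its partner, rose 4.09-fold, from 212, 252, 198 and 309 to 1169, 1004, 780.4 and 1011. Atf3, a repressor induced by many stresses, rose 4.49-fold, with 100.0, 112, 124 and 123 and 788, 566, 404 and 395. Maff, a small Maf protein, rose 3.91-fold. Fosl2 and Jdp2 rose 4.25-fold and 3.04-fold by their brightest probe sets, while the other probe set of each gave 0.11 and -0.03. Junb rose 2.02-fold and Fosl1 1.46-fold. Fosb and Jund were not called (0.16 and 0.10). Batf3, a factor of cross-presenting dendritic cells, was the member that fell (1.62-fold, 350.3, 373, 329.7 and 401 against 251, 249.7, 212 and 189).

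In the EGR and early response list 4 of 16 members rose and 0 fell. Egr1, a zinc finger factor that follows MAP kinase signalling, had 762, 803, 464 and 716 with vehicle and 7229, 5337, 4041 and 3298 with 2BE (7.08-fold, adjusted p = 9.67e-08). Egr2 rose 3.90-fold, Ier3 4.82-fold and Ier2 1.87-fold, none of them with overlap, while Egr3 was at -0.11. The orphan nuclear receptor Nr4a1 rose 3.24-fold (626, 709, 497 and 610.0 against 3279, 2146, 1686 and 1255), but its siblings Nr4a2 and Nr4a3 were at 0.071 and -0.017 and not called. Rarg, a retinoic acid receptor, fell 1.37-fold; the 15 nuclear receptors had 1 rise and 1 fall (1 and 0 on the 8 arrays alone). Klf4 rose 1.67-fold and Klf6 1.37-fold among 13 KLF factors (1 and 0 without the pair, 1 and 0 on the 8 arrays alone), the call of Klf6 being lost without vehicle array 1, 2 or 3, or 2BE array 1, 2 or 4 (adjusted p then 0.0709 to 0.133). Klf2 was at -0.33.

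Of 18 C/EBP, CREB and related leucine zipper factors 6 rose and 0 fell (5 and 0 on the 8 arrays alone). Cebpb and Cebpd, which act with NF-kB on the genes of inflammation, rose 2.73-fold and 3.04-fold. Cebpb had 772, 788, 1336 and 1297 against 2978, 2900.1, 2699.7 and 2527. Crem, whose short forms repress cAMP-responsive genes, rose 2.69-fold (131, 126, 148 and 137 against 292, 453, 318 and 424, adjusted p = 1.31e-07; other probe sets gave 0.15, 0.22 and 1.68), Nfil3 2.58-fold and Bach1, a heme-sensing repressor of Hmox1, 1.54-fold (1046, 1009.6, 1116 and 1151 against 1927, 1703, 1567 and 1480.3). Of 26 helix-loop-helix and MYC factors 5 rose and 1 fell (4 and 0 without the pair, 4 and 0 on the 8 arrays alone). Per1 aside, Bhlhe40 rose 2.09-fold and Id2, an inhibitor of E proteins, 1.89-fold. Myc rose 1.56-fold (740.3, 664, 788 and 718 against 1321, 1052, 1154 and 1027), and its call was lost without vehicle array 2, or 2BE array 1 or 3 (adjusted p then 0.0545 to 0.0737).

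Falls stood among the lineage factors. In the list of 25 lymphoid factors 0 rose and 4 fell (0 and 3 without the pair, 0 and 3 on the 8 arrays alone), with the lowest median of the 34 gene lists, -0.29. Tbx21 (T-bet), the factor of NK and type 1 T cells, went from 229, 181, 171 and 234 to 138, 97.2, 95.1 and 91.9, 1.93-fold lower (adjusted p = 0.00503). Zbtb32 fell 1.27-fold (adjusted p 0.0536 without the pair), Pou2f2 (Oct-2 of B cells) 1.45-fold and Elf4 1.24-fold. The calls of Pou2f2 and Elf4 were lost without vehicle array 2 or 4, or 2BE array 4 (adjusted p then 0.0612 to 0.0725) and without vehicle array 2 or 4, or 2BE array 1, 2, 3 or 4 (adjusted p then 0.0698 to 0.141). The count of falls was 2 without vehicle array 2 or 4, or 2BE array 4 and 7 without vehicle array 3. The lower NK marker level stands beside Tbx21, and its part was not tested. Of 15 myeloid and erythroid factors 0 were called by limma (1 higher and 4 lower at an unadjusted p under 0.05). In the developmental list 2 of 28 rose and 4 fell (1 and 4 without the pair, 0 and 3 on the 8 arrays alone), and those that fell include factors of the spleen's own mesenchyme: Tlx1, without which no spleen forms, had 264, 359, 272 and 401 with vehicle and 207, 169, 148 and 161 with 2BE (1.87-fold lower, adjusted p = 0.000948), Tcf21 fell 1.85-fold from 1256, 1625, 1009 and 1616 to 857, 746, 607 and 739, and Nkx2-3 1.26-fold. Other Nkx2-3 probe sets gave -0.062 and -0.15, neither of them called. Sox18, of endothelium, fell 1.51-fold and Sox7 rose 1.64-fold (its other probe set gave 0.071). Both calls rested on single arrays and were lost without vehicle array 2, or 2BE array 2, 3 or 4 (adjusted p then 0.0559 to 0.0873) and without vehicle array 1 or 3, or 2BE array 1 or 2 (adjusted p then 0.0504 to 0.113). The remaining rise, that of Foxc2 (1.40-fold), was lost without vehicle array 1, 2 or 4, or 2BE array 2 or 4 (adjusted p then 0.0539 to 0.0818).

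The list of growth factor and MAP kinase feedback genes had a median of 0.31. Of its 24 members 10 rose and 1 fell (9 and 1 without the pair, 5 and 1 on the 8 arrays alone). The list also holds the kinase Map3k8 and, of G protein signalling, Rgs1 and Rgs16, which rose, and Rgs2, which fell. Errfi1 (Mig-6), an inhibitor of EGF receptor kinases that glucocorticoids also induce, had 317, 441, 208 and 597 with vehicle and 4921, 6504, 3321 and 4151 with 2BE (12.6-fold, log2 difference 3.65 ± 0.45 SE, adjusted p = 3.05e-05). Dusp1, a phosphatase that inactivates p38 and JNK, rose 5.21-fold, from 752, 945, 974 and 1322 to 5718, 6221, 3856 and 4948. Dusp5, a nuclear ERK phosphatase, rose 1.76-fold, Dusp2 1.55-fold and Dusp16 1.42-fold, and the receptor tyrosine kinase inhibitors Spry2 and Spry4 1.60-fold and 1.56-fold. The other Spry2 probe set gave 0.12, and those of Spry4 gave -0.0040, 0.27 and 2.62. Dusp4 and Dusp6 were not called (0.24 and 0.32). Rgs1, which ends G protein signalling of chemokine receptors, rose 5.21-fold (285, 315, 286 and 353 against 1803, 2072, 1335 and 1359, adjusted p = 2.75e-07), whereas Rgs2 fell 1.53-fold.

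Dusp1 (chr17:26508473-26508622, minus strand) and Errfi1 (chr4:150854920-150855069, plus strand, 1 of 2 listed starts) are shown over 150 bases before the start because, of the feedback genes with large rises, both hold (as found after the search) a full cAMP response element (TGACGTCA, in capitals), an element that is its own reverse complement.
Dusp1: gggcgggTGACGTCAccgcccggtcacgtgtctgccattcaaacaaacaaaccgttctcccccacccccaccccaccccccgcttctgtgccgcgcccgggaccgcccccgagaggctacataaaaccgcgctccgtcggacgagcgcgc
Errfi1: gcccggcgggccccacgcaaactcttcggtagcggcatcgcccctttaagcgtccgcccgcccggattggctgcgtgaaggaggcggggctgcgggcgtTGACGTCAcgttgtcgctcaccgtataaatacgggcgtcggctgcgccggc
The element stood in 1.55% of all windows of 250 bases and, by gene, in 2.50% of tested genes with a window. It stood in 6 of the 89 genes with a window that rose at least 2-fold (6.74%), in 21 of 444 that rose at all (4.73%) and in 1 of 259 that fell (0.386%). In the growth factor and MAP kinase list 3 of 20 members with a window held it, and 2 of the 8 that rose. In the cAMP, G protein and calcium list, described next, 1 of 14 did, and 1 of the 4 that rose.

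Among cAMP, G protein and calcium regulators 8 of 20 rose and 3 fell (9 and 3 without the pair, 6 and 2 on the 8 arrays alone). Rgs1, Rgs2 and Rgs16 are counted in the growth factor and MAP kinase list as well, and Crem was given above with the leucine zipper factors. Rhob, a short-lived GTPase of the vessel wall, rose 3.28-fold (730.4, 945, 901 and 1158 against 2881, 3408, 2792 and 3037, adjusted p = 2.47e-07), Gem 2.77-fold, the kinase Sik1 2.24-fold and the calcineurin inhibitor Rcan1 1.88-fold. Arrdc4, an alpha-arrestin that limits glucose uptake, fell 1.54-fold. Of 15 genes of mRNA decay and growth restraint 3 rose and 0 fell (1 and 0 without the pair, 1 and 0 on the 8 arrays alone). Among the proteins that destroy inflammatory mRNAs, Zfp36l2 rose 2.16-fold by its brightest probe set (other probe sets gave -0.053 and 0.048) and Zfp36 (tristetraprolin) 1.86-fold, with overlapping groups for the latter (1137, 1484, 1016 and 1769.7 against 3490.4, 2831, 2187 and 1679.5) and a call lost without vehicle array 1, or 2BE array 1 or 2 (adjusted p then 0.0501 to 0.0639). Tob2 rose 1.27-fold, a call lost without vehicle array 2 or 3, or 2BE array 1 or 2 (adjusted p then 0.0521 to 0.0606), and the count of 3 was 1 without 2BE array 1 or 2. In the TGF-beta, BMP, Notch and Wnt list 3 of 20 rose and 2 fell (3 and 1 without the pair, 3 and 1 on the 8 arrays alone). Id2, given above with the helix-loop-helix factors, was among those that rose. Pmepa1, a brake on TGF-beta signalling, rose 1.81-fold (other probe sets gave 0.11 and 0.71) and Nrarp, a Notch target and inhibitor, 1.39-fold, while Axin2, the usual reporter of Wnt signalling, fell 1.32-fold (138, 131, 137 and 141 against 105, 108, 109 and 90.7). Of 18 genes of STAT feedback 1 rose and 1 fell (0 and 1 without the pair, 0 and 1 on the 8 arrays alone): Pim2 fell 1.44-fold and Pim3 rose 1.27-fold, a call lost without vehicle array 1, or 2BE array 1 or 2 (adjusted p then 0.0513 to 0.0561).

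Among the cell type lists, that of NK cells had the most falls. Of 14 measured, 0 rose and 4 fell (0 and 3 on the 8 arrays alone), and the list median was -0.45. Ncr1 (NKp46), the receptor that defines NK cells, had 173, 203, 142 and 186 with vehicle and 75.4, 59.6, 76.0 and 48.5 with 2BE, 2.71-fold lower (log2 difference -1.44 ± 0.18 SE, adjusted p = 4.38e-05). Gzma, a granule protease, fell 1.96-fold (1133, 1508, 1069 and 1672 against 640.0, 606, 737 and 727), Nkg7, a granule membrane protein, 1.87-fold and Klrg1 1.42-fold, the call of Klrg1 being lost without vehicle array 2 (adjusted p then 0.051). Gzmb, Prf1 and Klrd1 were not called (-0.075, -0.32 and -0.24). Not all members were lower: log2 differences ran from -1.44 to 0.40. At an unadjusted p under 0.05 by limma 1 member was higher and 9 were lower. For 1 member all 2BE arrays lay above all vehicle arrays, and for 4 below, beside 4.78% and 6.95% of all genes. Under the other settings up to 1 rise was called. The mean log2 level of the list was 7.54 to 7.95 with vehicle and 7.20 to 7.41 with 2BE, without overlap. The count of falls was 7 without vehicle array 3, the array of highest Nkg7 (985).

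Of 13 B cell markers 0 were called by limma (0 higher and 1 lower at an unadjusted p under 0.05), with a median of -0.32 and list means of 10.3 to 11.3 with vehicle and 10.3 to 10.9 with 2BE. Of 17 T cell markers 1 rose and 1 fell (1 and 0 without the pair, 0 and 0 on the 8 arrays alone): Ctla4, an inhibitory receptor, rose 1.69-fold and Cd8b1 fell 1.77-fold, a call lost without vehicle array 1 or 2, or 2BE array 1, 3 or 4 (adjusted p then 0.0578 to 0.158). Cd3e had 817, 1085, 667 and 811 with vehicle and 752, 822, 565 and 641 with 2BE and was not called (adjusted p = 0.393). Of 10 monocyte markers 1 rose and 2 fell (1 and 1 without the pair, 1 and 1 on the 8 arrays alone): Cd14 rose, as above, while Ccr2 and Cx3cr1 fell 2.12-fold and 1.47-fold, the call of Cx3cr1 being lost without vehicle array 1 or 2, or 2BE array 1, 3 or 4 (adjusted p then 0.0517 to 0.114). Ccr3, a receptor of eosinophils, fell 2.06-fold (104, 171, 147 and 124 against 77.3, 71.5, 60.4 and 52.8), and the other 4 eosinophil markers were not called. Of 14 neutrophil markers 0 rose and 1 fell (1 and 1 without the pair, 0 and 0 on the 8 arrays alone): Il1f9, which was 1.96-fold lower, a call lost without vehicle array 4, or 2BE array 2 or 4 (adjusted p then 0.0512 to 0.0531). S100a8 and S100a9 were at -0.22 and -0.46. The neutrophil mean was 9.12 to 11.2 with vehicle, the top being replicate 3, and 9.21 to 9.86 with 2BE. Limma called 0 of the 18 red pulp and marginal zone macrophage markers (median 0.10; 2 higher and 2 lower at an unadjusted p under 0.05), 0 of the 9 MHC class II genes (0 higher and 0 lower at an unadjusted p under 0.05), 0 of the 11 megakaryocyte and platelet markers (0 higher and 0 lower at an unadjusted p under 0.05) and 0 of the 15 erythroid markers (median 0.0072; 0 higher and 1 lower at an unadjusted p under 0.05).

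Of 17 endothelial markers 5 rose and 0 fell (4 and 0 without the pair, 3 and 0 on the 8 arrays alone): Nos3, Stab1, a scavenger receptor of sinusoids (1.94-fold, 169, 153, 168 and 237 against 361, 402, 323 and 312), Esam (1.48-fold) and the junction genes Cldn5 and Cdh5 (1.48-fold and 1.38-fold). The calls of Cldn5 and Cdh5 were lost without vehicle array 1, 2 or 3, or 2BE array 1 or 2 (adjusted p then 0.0501 to 0.0796) and without vehicle array 1, 2 or 3, or 2BE array 1, 2 or 4 (adjusted p then 0.0771 to 0.115), and the count was 3 without vehicle array 1, 2 or 3, or 2BE array 2. The other Cdh5 probe set gave 0.18. Pecam1, Tek and Kdr were not called (-0.082, -0.17 and -0.45). Of 15 stromal and smooth muscle markers 3 rose and 1 fell, with a median of 0.23 and of -0.026 without the pair. Tlx1 fell, as above. The contractile genes Tagln and Acta2 rose 3.51-fold (923, 1097, 858 and 1844 against 4537, 4710.0, 3137 and 3643) and 2.17-fold (1667, 1824, 1531 and 1743 against 3909.5, 3722, 3547 and 3464; other probe sets gave 0.13 and 0.62), and Des 1.43-fold, while the collagens Col1a1 and Col3a1 and the receptor Pdgfrb were not called (-0.14, 0.23 and 0.045). Of 8 adipocyte markers 1 rose and 0 fell (0 and 1 without the pair). Fabp4 had 151, 133, 173 and 411 with vehicle and 799, 1002, 4515 and 989 with 2BE (7.03-fold), without overlap. Its call was lost without vehicle array 1, 2 or 3, or 2BE array 3 or 4 (adjusted p then 0.0502 to 0.107), while the log2 difference was 2.81 in all and 2.24 without 2BE array 3, and other probe sets gave 1.48, 2.09 and 2.83. Adipoq, which adipocytes make and spleen cells do not, had 11.7, 14.3, 14.5 and 69.2 and 13.8, 18.7, 2483 and 121 and was not called.

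**Figure D4:**
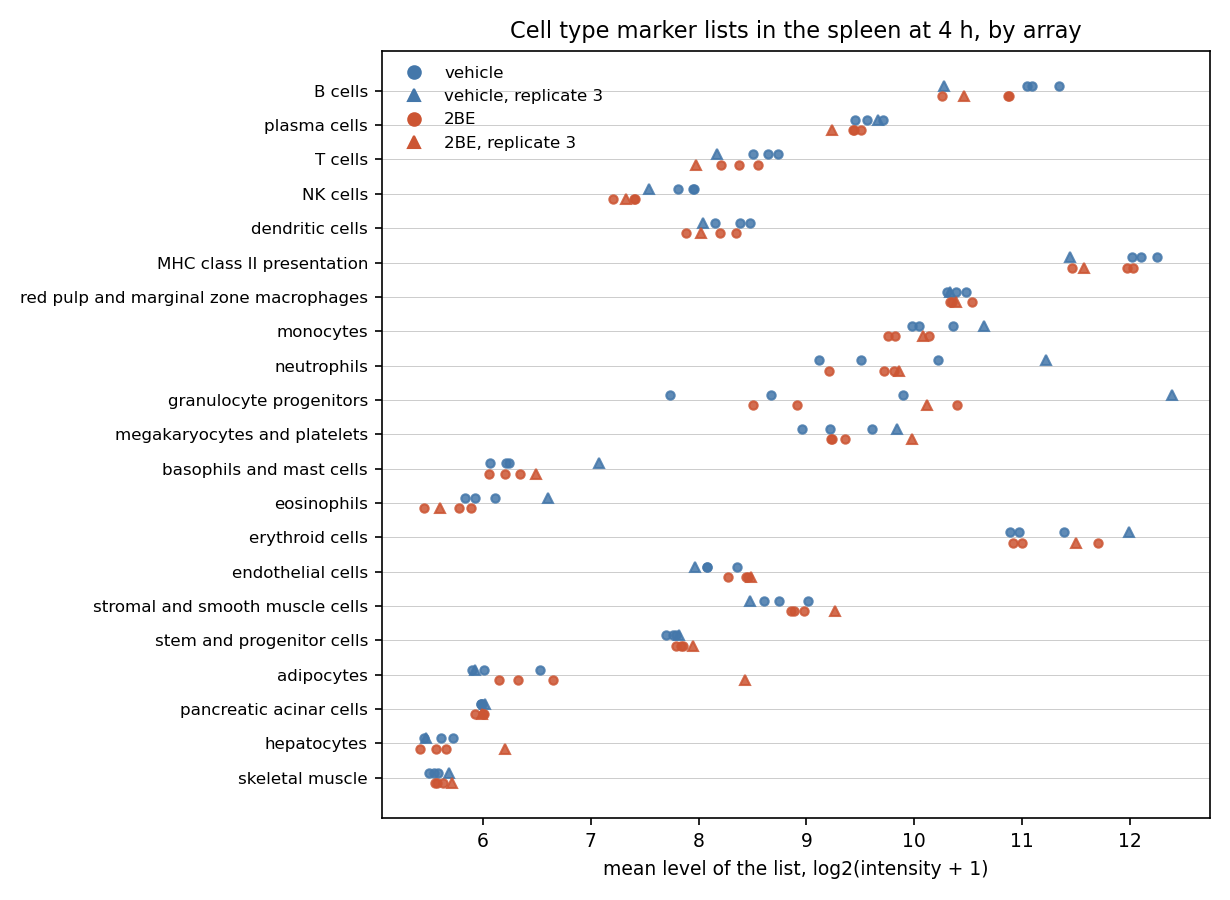
Mean log2(intensity + 1) of 21 cell type marker lists in each of the 8 spleen arrays at 4 h, blue for vehicle and red for 2BE, with triangles for replicate 3 of each group. NK cell markers are lower in all 4 2BE arrays (7.20 to 7.41) than in all 4 vehicle arrays (7.54 to 7.95), and the triangles show the granulocyte progenitor level of vehicle replicate 3 (12.4) and the adipocyte level of 2BE replicate 3 (8.43).

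Outside the lists, the rule of largest changes named a few more genes. Apold1, an early response gene of endothelium, rose 8.64-fold (83.3, 73.3, 124 and 103 against 919, 836, 724 and 805, adjusted p = 4.26e-11). Ch25h, whose product 25-hydroxycholesterol restrains sterol synthesis and viruses, rose 6.89-fold (145, 122, 82.9 and 148 against 1453, 1003, 686 and 502). Dnah2, an axonemal dynein, rose 8.12-fold by 1 probe set, while the other gave -0.11. On the falling side stood Sned1, a matrix glycoprotein (2.21-fold, 352, 438, 371 and 549 against 265, 187, 166 and 158), Kcnj16, a potassium channel (2.14-fold), Irs1, the insulin receptor substrate (1.87-fold), Dact1, a Wnt pathway regulator (1.80-fold), and Bpgm, which makes the red cell's 2,3-bisphosphoglycerate (1.78-fold, 7069.9, 7275, 6418 and 6446 against 5015, 3281, 4148 and 3093). The rule admitted only genes whose groups did not overlap, so the lack of overlap in these 8 was set by the choice. Among the genes chosen for naming, 73 of those called were read by more than 1 probe set. All other probe sets were called the same way for 31 of them, some for 19 and none for 23. Other probe sets are given for some of these genes only, so a gene without such a value may still have one that was not called. Examples are Zbtb32 (-0.12), Axin2 (-0.21) and Des (0.19).

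The response at 4 h was then set against that of the spleen at 7 d, where 5 2BE arrays were compared with 5 vehicle arrays and the difference of the responses was tested within 1 fit. The responses differed for 9326 genes (51.3%), of which 4663 were higher at 4 h and 4663 lower. The leading early genes were not called at 7 d. Cxcl2 had a log2 change of 0.039 at 7 d, and the responses differed by 5.42 ± 0.29 SE (adjusted p = 1.63e-09). Il6 was at -0.17, Ccn1 at -0.38, Hspa1a at -0.21, Hspa1b at -0.70, Fos at 0.0064 and Errfi1 at -0.64 at 7 d, and adjusted p there ran from 0.0677 (Hspa1b) to 0.978 (Fos). Some early genes went below vehicle at 7 d, such as Egr1 (-1.56, adjusted p = 2.06e-06), Tagln (-1.14) and Rhob (-1.03). The metallothioneins stayed up: Mt2 was at 2.03 at 7 d (adjusted p = 0.000135) and its difference between times was not called (adjusted p = 0.332), while Mt1 was at 1.23, less than at 4 h (adjusted p of the difference 0.0304). Apold1 and Dusp1 were also still higher at 7 d (0.97 and 0.90), though by less than at 4 h (adjusted p of the differences 3.05e-07 and 6.7e-05).

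Some of the falls were seen at both times. Ncr1 was lower by a log2 difference of -1.44 at 4 h and -1.26 at 7 d, Ccr2 by -1.08 and -1.05, and Tlx1 by -0.91 and -0.85, and for none of them was a difference between times called (adjusted p = 0.548, 0.901 and 0.832). Gzma and Tbx21 had fallen further at 7 d (-1.90 and -1.73, adjusted p of the differences 0.00796 and 0.0175). Of the 8 differences named by rule in the other direction, 5 are given here, and none of these genes was called at 4 h. Epb42, a red cell membrane protein, had -0.28 at 4 h and 3.81 at 7 d, Kel 0.037 and 3.63, Dmtn -0.24 and 3.36, Trim10 -0.32 and 3.26, and Apol8 -0.38 and 4.01. Bpgm reversed, from -0.83 at 4 h to 0.81 at 7 d (adjusted p of the difference 2.02e-05).

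Against the liver of the same time point, 323 responses differed (1.78%), 170 higher in spleen and 153 lower. Whether spleens and livers came from the same mice is not stated, and the fit treated their arrays as independent. The difference of responses used the 4 h spleen arrays again, so it is not independent of the 4 h result or of the difference from 7 d. Ccn1, Hspa1b, Il6, Ccl2, Cxcl2 and Errfi1 were induced more in spleen. Il6 was at 0.19 in liver (difference 4.12 ± 0.66 SE, adjusted p = 0.00405), Ccl2 at 0.14 and Ccn1 at -0.40 (adjusted p of the difference 4.18e-06). Cxcl2 rose in liver too, by 1.89 on the log2 scale, and by more in spleen (adjusted p of the difference 0.00106). Hspa1a also rose in both, by 2.43 in liver and by more in spleen (adjusted p of the difference 0.00185). For Cxcl1, Fos, Jun, Egr1, Tnfaip3, Cebpb and Dusp1 no difference between the organs was called, with liver changes of 2.64, 1.96, 2.13, 2.15, 1.73, 1.34 and 1.85; for Jun the difference was -0.093 ± 0.23 SE. Apold1, Rgs1 and Tagln rose in spleen and stood at 0.26, 0.48 and 0.0013 in liver (adjusted p of the differences 4.18e-06, 0.000335 and 0.00559). Osgin1 moved in opposite directions, with 1.24 in spleen and -1.70 in liver (adjusted p of the difference 0.000335).

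Several genes answered more in liver. Gadd45g rose in both, by 0.57 in spleen and 2.82 in liver. Btg2 and Trp53inp1, targets of p53, were at 0.26 and 0.055 in spleen and at 2.33 and 2.26 in liver. Cyp2b10, a drug-metabolising cytochrome of liver, was at -0.079 and 2.82. Arrdc3 and Socs2 fell in liver (-3.56 and -3.13) and were not called in spleen (0.50 and -0.035); Arrdc3 was called without 2BE array 1 (adjusted p then 0.022). Hmox1 rose by 3.24 in liver, and its difference from spleen was not called (adjusted p = 0.0802).

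**Figure D5:**
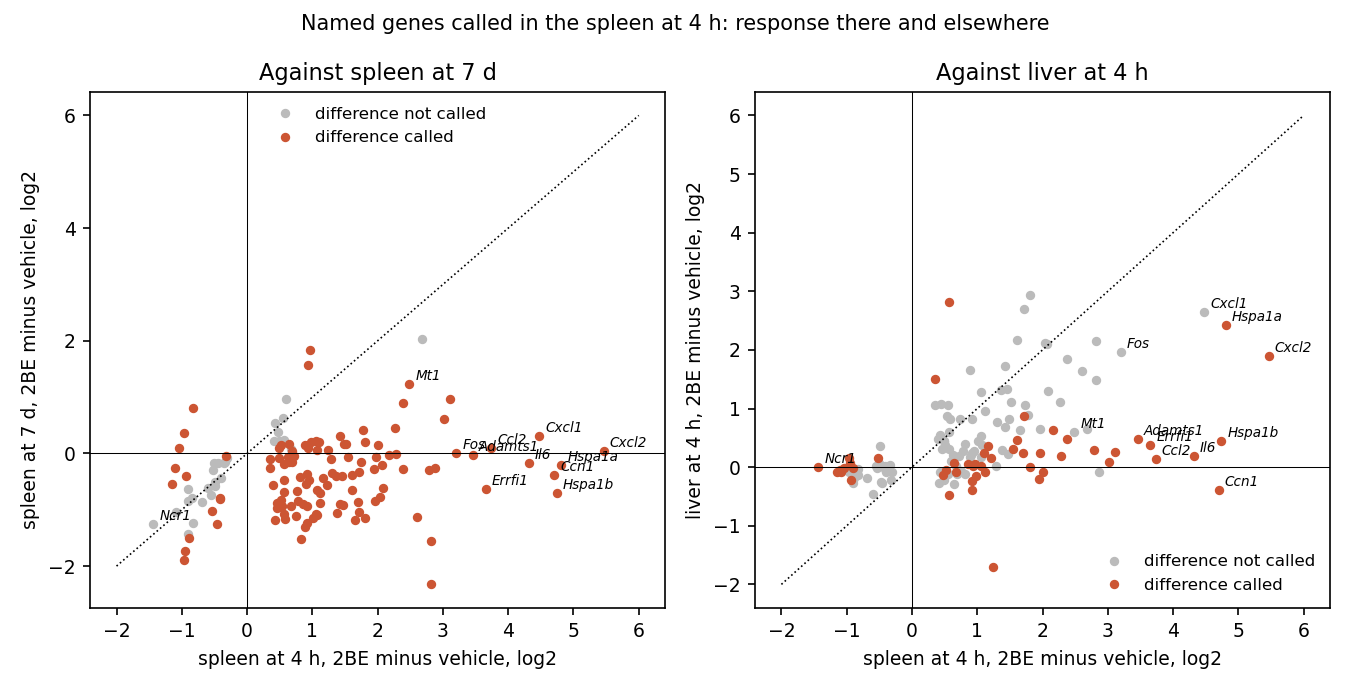
Log2 response of the 146 named genes called in the spleen at 4 h (x axis) against their response in the spleen at 7 d (left y axis) and in the liver at 4 h (right y axis), 1 point a gene, red where the difference of the responses was called (118 genes on the left, 51 on the right) and dotted where both would be equal. Over all genes, the difference was called for 51.3% against 7 d and for 1.78% against the liver, so the 2 counts are not alike. The genes were chosen on the x axis, so their distance from the line is a description. Cxcl2 is at 0.039 and Ccn1 at -0.38 on the left axis, and Il6 is at 0.19 and Ccl2 at 0.14 on the right one.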

How the data were processed

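The deposited table holds 45101 probe sets as intensity values on a linear scale, which the authors made with RMA per the submitters' processing notes, with no version given. RMA as a method corrects background, equalises the distributions of arrays and summarises probes, so shifts common to all genes are reduced. The medians of the 5 tissue-and-time sets of arrays differ, so the sets may have been normalized apart, and levels were compared within a set only. Probe sets with 1 gene symbol in GEO's platform annotation (34945, with 932 holding several and 9160 none) were kept, and each of 18193 genes was read by its brightest probe set on average over the 44 arrays. The deposited values were taken to log2(intensity + 1), so fold changes of dim genes are understated.

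Group means of the 18 spleen arrays entered limma (version 3.58.1 under R 4.3.3; lmFit and eBayes, two-sided, Benjamini-Hochberg over all genes), and genes at an adjusted p under 0.05 were called. The 4 h response was also set against that at 7 d in this fit, and against liver in a fit of the 15 arrays at 4 h. Values with ± are standard errors of the fit. For the 4 h response they compare 4 arrays in each group, with the spread estimated over all 18 spleen arrays. For differences they also take in the 7 d spleen arrays, or the 4 h liver arrays with the spread estimated over the 15 arrays. The number of arrays limits the precision. The fit was tested on simulated data. The members of the 34 gene lists and 21 marker lists were chosen with earlier results of these data known, so lists are described by counts and medians only. Genes were named by rule: the 16 largest rises and falls among called, non-overlapping genes above the array's median, up to 6 called members of each list, other list members where their list is described, and a fixed set of inflammation and stress genes. The 8 largest differences each way from 7 d and from liver were named too. These were drawn from called differences of genes whose higher group mean in the 4 h spleen exceeded the median of all probe sets there. Clone-like symbols were left out of the largest changes and differences. Promoters are RefSeq windows of build GRCm38.p6, and 14452 of the tested genes had one.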

Additional observations from a re-analysis of the deposited data

Results flagged for a closer look

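A single array stood far from the other 3 of its group, by Dixon's test, for 11 of 342 groups of named-gene values and for 1 of 42 groups of marker list means, where chance alone marks about 1 in 20. In the vehicle group, replicate 3 was high for Nkg7 (985) and Dnajb4 (1143) and low for Egr2 (67.5) and Atp1b1 (432), and its basophil and mast cell marker mean was 7.08 on the log2 scale, against 6.07 to 6.24 in the others. Vehicle replicate 2 was high for Ier2 (703), and vehicle replicate 4 for Esam (594) and Adipoq (69.2). In the 2BE group, replicate 1 was high for Tbx21 (138) and Sox18 (323), replicate 3 for Fabp4 (4515, against 799 to 1002 in the others), and replicate 4 for Cd14 (1504).

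Differences of responses were ranked only among called genes above the median level in the 4 h spleen, so larger differences of genes dim there are left out. Between 4 h and 7 d in the spleen, the 8 largest of these in each direction were taken. On the log2 scale they were 5.44 for Hspa1b, 5.42 for Cxcl2, 5.36 for Car3, 5.31 for Adipoq, 5.14 for Fabp4, 5.08 for Ccn1, 5.02 for Hspa1a and 4.48 for Il6 on the side of 4 h. On the side of 7 d they were -4.38 for Apol8, -4.10 for Apol11b, -4.09 for Epb42, -3.91 for Mageb16, -3.83 for Samd11, -3.60 for Dmtn, -3.59 for Kel and -3.59 for Trim10. Car3, Adipoq and Fabp4 are expressed by fat cells. At 4 h Car3 stood at 53.2, 81.6, 73.0 and 582 with vehicle and 85.9, 105, 8339.7 and 831 with 2BE, with the adipocyte marker mean at 8.43 in 2BE replicate 3 and at 6.15 to 6.65 in the other 2BE arrays, and the part of fat in these differences was not tested.

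Between spleen and liver at 4 h, the largest differences under the same conditions were 5.09 for Ccn1, 4.29 for Hspa1b, 4.12 for Il6, 4.06 for Arrdc3, 3.59 for Ccl2, 3.57 for Cxcl2, 3.28 for Errfi1 and 3.09 for Socs2, all higher in spleen. Those higher in liver were -2.90 for Cyp2b10, -2.41 for Atp1b1, -2.24 for Gadd45g, -2.20 for Trp53inp1, -2.16 for Thbd, -2.11 for Lpin1, -2.10 for Rasgef1b and -2.07 for Btg2. All 32 were drawn from differences called with all arrays (limma, Benjamini-Hochberg over 18193 genes), so their calls there were set by the choice. Leaving out single arrays ended the calls of 4: Car3 (9 arrays, adjusted p then 0.0513 to 0.0773) and Adipoq (4 arrays, 0.0506 to 0.0633) against 7 d, and Thbd (10 arrays, 0.0531 to 0.0857) and Lpin1 (7 arrays, 0.0503 to 0.0605) against liver. With a trend and robust settings Car3 and Adipoq were not called either. Both sets use the 4 h spleen arrays.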

How the results depend on the processing

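No named gene that was called in the main fit or under an alternative changed direction between them. Changes of sign in genes called in neither fit were not counted. Of the genes that differed from liver, 170 were higher in spleen and 153 lower, but 220 and 246 with array weights, 166 and 200 without spleen vehicle replicate 3, and 167 and 173 without liver 2BE replicate 1. The count of called genes moved most with the arrays in the fit: 508 (347 up, 161 down) with only the 8 spleen arrays at 4 h, of which 480 were among the 938. A larger offset of 16, a filter on dim genes, another choice of probe set, and a trend with robust settings gave 923 to 972. Further quantile normalization gave 1167, of which 52.5% rose, and array weights 1234, of which 56.6% rose, beside 64.2% of the 938. Leaving out each array in turn gave 636 to 1027 called genes (636 without 2BE replicate 4, of which 75.3% rose), 130 to 161 changed at least 2-fold, 8366 to 10480 that differed from 7 d, and 214 to 366 that differed from liver. The low of 214 came without liver vehicle replicate 1, a group then of 2 arrays. Same-numbered vehicle and 2BE spleens at 4 h had deviations that correlated at 0.067, 0.54, 0.34 and -0.38, so the numbers were not read as pairs. A fit with a replicate block called 1036 genes (653 up, 383 down, 843 among the 938), 140 at least 2-fold, with 9578 that differed from 7 d and 241 from liver. Of the named genes and differences 3 lost their call under the block, and Tsc22d3 gained one (adjusted p = 0.0464, limma). Leaving out both arrays that stood apart was chosen after seeing the data: it gave 707 called genes, 137 of them at least 2-fold. Of the 146 called named genes 26 lost their call there, and 39 with the 8 arrays alone. Of 178 called values of named genes and their differences 41 lost the call without some array, and 0 to 5 under each of the other settings. Signal over background limits dim genes such as Ptgs2 and Sele.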

Other observations

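Beyond the lists, further genes rose at least 2-fold, and those given here were chosen after their values were seen. Akap12, a scaffold for protein kinase A, rose 6.40-fold (588, 656, 504 and 693 with vehicle, 4733, 4806, 3188 and 3130.0 with 2BE), Phlda1 5.99-fold (129.5, 107, 96.3 and 129.8 against 1261, 666, 612 and 449) and Sdc4, a cell surface proteoglycan, 4.85-fold (351, 254, 189.7 and 509 against 1819, 1801, 1136 and 1290.0). Genes of the cytoskeleton and its attachment to the matrix were among them: Tubb6 (3.57-fold), Pdlim5 (2.34-fold), Synpo (2.34-fold), Fermt2 (2.26-fold), Lima1 (2.20-fold), Palld (2.12-fold) and Smtn (2.09-fold). Tead1, a factor that drives Ccn1 and Ccn2 in other settings, rose 2.28-fold. Zfand2a, a heat shock-inducible gene outside the chaperone list, rose 2.65-fold (331, 263, 364 and 337 against 897, 932, 783 and 803). Ets2 rose 2.20-fold, Trib1 2.27-fold and Tgfb3 2.88-fold. On the falling side, Sectm1a was 2.60-fold lower (67.3, 64.5, 69.1 and 34.8 against 26.0, 20.6, 17.3 and 21.9) and Cd300lb, an activating receptor of myeloid cells, 2.11-fold lower (179, 298, 318 and 220.5 against 181, 67.5, 142 and 108).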
